A study of Homo sapiens with 12 samples.

Results

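Ceruloplasmin (CP) and 8 other genes of iron transport, iron sensing and haem breakdown (HEPH, TF, TFRC, SLC11A2, SLC40A1, ACO1, IREB2 and HMOX1) were followed across low oxygen and siRNA against either HIF alpha subunit in LN229 cells, an established human glioblastoma line. A member was taken as the array probe set that the platform annotation pairs with its symbol and no other, and 8 of the 9 members had 1 such probe set among the 14232 genes measured this way. IREB2 was not analysed here. Transcripts were read on 12 Affymetrix whole-transcript arrays, 3 in each of 4 groups. The groups were cells at 1% oxygen with HIF1A siRNA, cells at 1% oxygen with HIF2A siRNA, cells at 1% oxygen with non-targeting siRNA (hypoxic control cells) and cells at 20% oxygen with non-targeting siRNA (normoxic cells). All cells grew in medium with 10% serum, received siRNA 24 h after seeding, changed oxygen or stayed in normoxia 48 h later, and were harvested after a further 16 h. No group received siRNA against HIF1A or HIF2A at 20% oxygen, and every group is the same single cell line. The labels give neither the siRNA sequences nor how many were used for each target. The labels do not say whether replicates were separate cultures, and the p-values therefore speak only of the spread between these arrays, part or all of which may be technical.

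Iron enters most cells as ferric iron bound to transferrin (TF), which the transferrin receptor (TFRC) carries into endosomes. There it is reduced and moved to the cytosol by the divalent metal transporter SLC11A2. Ferroportin (SLC40A1) is the known cellular iron exporter, and the copper-containing ferroxidases ceruloplasmin and hephaestin (HEPH) oxidise the iron it releases so that transferrin can bind it. Iron regulatory proteins, encoded by ACO1 and IREB2, bind iron-responsive elements in mRNAs when iron is scarce, which stabilises the TFRC mRNA. Haem oxygenase 1 (HMOX1) frees iron from haem. The hypoxia-inducible factors HIF-1 and HIF-2, whose oxygen-regulated subunits are encoded by HIF1A and EPAS1 (HIF2A), bind DNA at the core letters ACGTG or GCGTG. CP, TF, TFRC and HMOX1 have been described as HIF target genes in other cells. In the brain, astrocytes make a membrane-anchored form of ceruloplasmin.

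The upstream sequence of TFRC is shown because TFRC was lower with HIF1A siRNA and was the one member, of the 7 with a RefSeq promoter window, where ACGTG was found. That fall was called in 10 of 14 alternatives, and hypoxia itself gave no call for TFRC (-0.13, limma adjusted p = 0.662). The 250 bases before the annotated TFRC start lie at chr3:196082091-196082340 of GRCh38.p14, minus strand, and capitals mark the ACGTG, whose first base is 88 bases upstream of the start.

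TFRC: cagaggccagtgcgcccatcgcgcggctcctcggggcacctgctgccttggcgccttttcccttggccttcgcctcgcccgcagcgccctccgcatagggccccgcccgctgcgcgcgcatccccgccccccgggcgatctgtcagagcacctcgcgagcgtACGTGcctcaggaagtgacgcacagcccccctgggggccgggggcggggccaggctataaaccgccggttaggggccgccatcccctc

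ACGTG or its complement on the other strand occurred in 18.5% of all 35116 RefSeq windows of that length, GCGTG in 32.2% and either in 43.2%. CP and HMOX1 are the 2 of 9 members with no entry. GCGTG was present for ACO1, SLC11A2 and IREB2, and neither set of letters for HEPH, SLC40A1 or TF. A member was counted if any of its windows held the letters, and SLC11A2 has 4 windows, HEPH 3, and IREB2 and TF 2 each. The shares above are per window, so they are not a like measure. These matches are letters in a window and were not tested as binding sites.

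Values are log2 array signals as deposited, and the level of one gene cannot be set against that of another. Array medians lay between 6.49 and 6.82, arrays of 1 group correlated at r = 0.983 to 0.994 over probe sets, and replicate 3 of HIF1A siRNA had the lowest upper quartile (7.88). HIF1A was lower with HIF1A siRNA than in hypoxic control cells (log2 change -3.13, SE 0.27, limma adjusted p = 1.6e-04). EPAS1 was lower with HIF2A siRNA (-2.59, SE 0.15, adjusted p = 3.1e-05), but also with HIF1A siRNA (-1.48, SE 0.15, adjusted p = 3.1e-04). The HIF1A siRNA group was thus lower than hypoxic control cells in both transcripts. Its EPAS1 mean of 8.23 was not called apart from the normoxic 8.52 (-0.29, limma adjusted p = 0.148). It was above the 7.12 with HIF2A siRNA (1.11, limma adjusted p = 0.0017). The members' values with HIF1A siRNA come with that lower EPAS1, whose part was not tested.

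Of 8 glioma or astrocyte markers, 6 lay above the lower quartile of every array, among them VIM (11.8 to 12.5), S100B (10.1 to 11.2), NES (9.76 to 10.3) and GFAP (6.11 to 6.64), while AQP4 lay below it on all 12 arrays and SLC1A3 on 11. S100B was lower in hypoxic control than in normoxic cells (-0.63, SE 0.13, limma adjusted p = 0.0091) and higher with HIF1A siRNA than in hypoxic control cells (0.85, SE 0.13, adjusted p = 0.0029), each in all 14 alternatives. NES was lower in hypoxia (-0.41, adjusted p = 0.0112), a call lost without hypoxic control replicate 2 (0.0549) or normoxic replicate 1 (0.0576) and with quantile normalization (0.170) or cyclic loess (0.188). Of 22 markers of macrophages, endothelium, hepatocytes, erythroid cells and oligodendrocytes, 9 lay below the lower quartile on all 12 arrays, including ALB, APOB, FGB, PTPRC, CD163 and PECAM1. Another 9 lay above it on all 12, including the hepatocyte genes APOA1 (6.99 to 7.33) and TTR, the macrophage gene CD68 (8.23 to 8.85), the endothelial genes CDH5 and VWF, and the oligodendrocyte gene SOX10 (10.1 to 10.6). By limma 0 of the 22 were called in hypoxia or with either siRNA against hypoxic control cells. The same rule called 12.3%, 11.1% and 0.00703% of all genes in hypoxia, with HIF1A siRNA and with HIF2A siRNA. The 0 with HIF2A siRNA therefore says little. In the same order 0, 6 and 2 of the 22 had an unadjusted p under 0.05, a share not given here for all genes. The mean log2 level of the 5 hepatocyte genes was 4.67 to 4.82 with HIF1A siRNA, 4.56 to 4.70 with HIF2A siRNA and 4.49 to 4.73 in hypoxic control cells, against 4.56 to 4.73 in normoxic cells. The means of the 2 erythroid and of the 4 oligodendrocyte genes were higher on every HIF1A siRNA array (5.20 to 5.44 and 6.81 to 6.86) than on every hypoxic control array (4.87 to 5.18 and 6.58 to 6.77), and the part of these markers in the members' values was not tested.

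Hypoxia raised 2 of the 8 measured members, CP and TF, and lowered none, by limma's test at an adjusted p under 0.05 over all 14232 genes. By the same rule 12.3% of all genes were called (3.37% higher and 8.95% lower). The 3 arrays of each group did not overlap for 5 of the 8 members, against 38.4% of all genes. The members' median log2 change was -0.07, against -0.03 over all genes. Relative to hypoxic control cells, HIF1A siRNA lowered 2 of 8 members, CP and TFRC, and raised none, while 11.1% of all genes were called (0.857% higher and 10.2% lower). Values did not overlap for 3 members, against 30.8% of all genes, and the member median was -0.24, against -0.05 over all genes. With HIF2A siRNA none of the 8 members was called by limma, and CP and HMOX1 had an unadjusted p under 0.05. That comparison called only EPAS1 among all genes, or 0.00703%, and 9.36% of all genes did not overlap between groups, so it gives little contrast to read the members against.

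**Figure D1:**
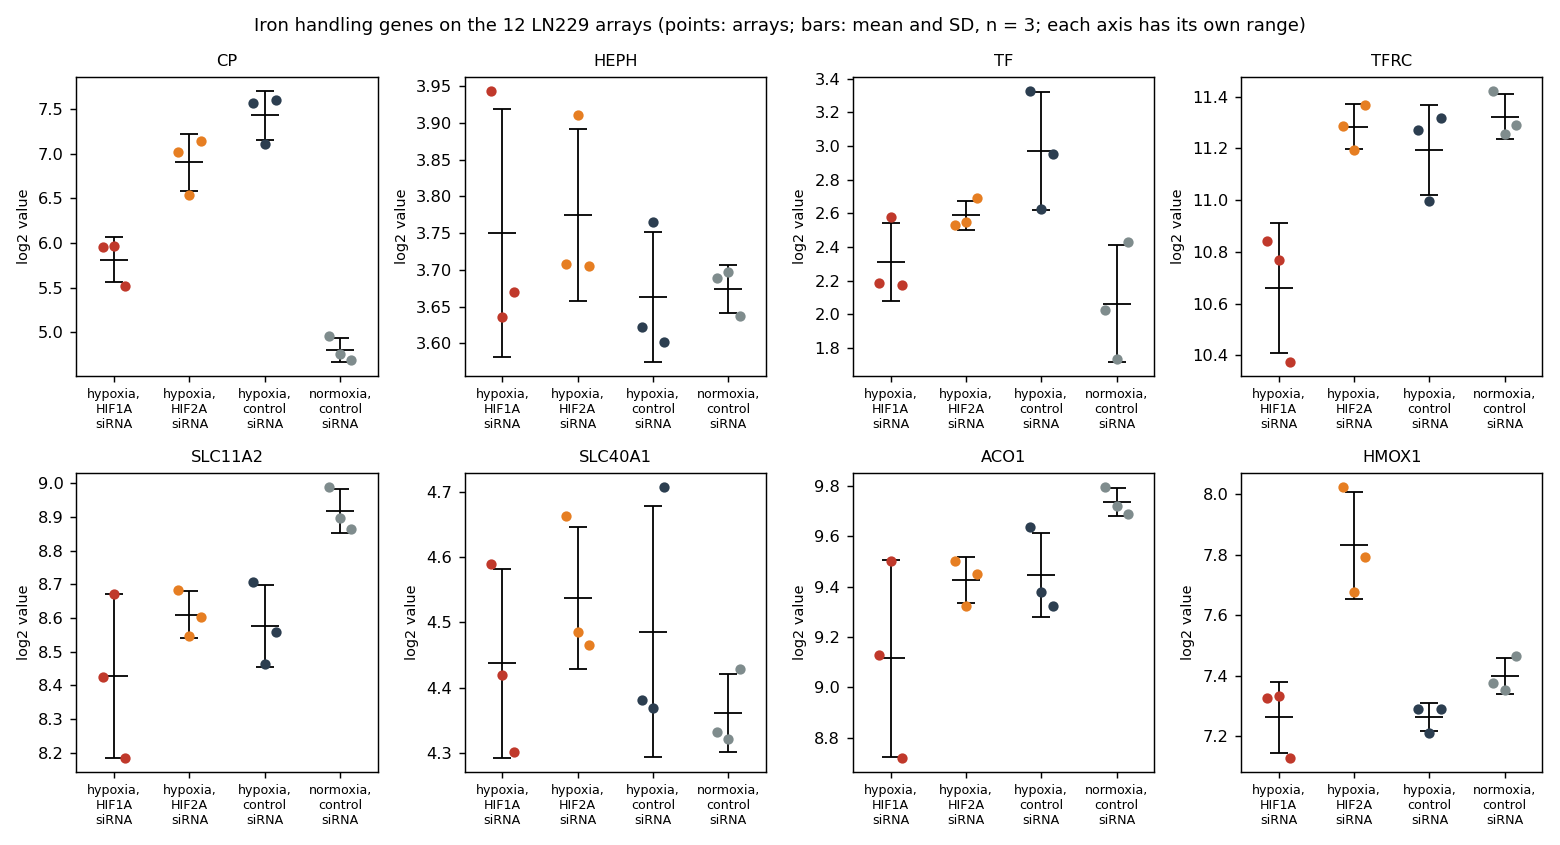
Deposited log2 values (vertical axis, own range in each panel) of the 8 measured members on the 12 arrays; points are arrays, horizontal bars the group mean and vertical bars the SD (n = 3). CP averaged 5.81 with HIF1A siRNA, 6.90 with HIF2A siRNA and 7.43 in hypoxic control cells, against 4.80 in normoxic cells.

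CP, the ferroxidase, gave the widest change of the members. Its probe set read 7.58, 7.11 and 7.61 in hypoxic control cells, against 4.95, 4.76 and 4.69 in normoxic cells. Every hypoxic control array was above every normoxic one, and the averages of 7.43 ± 0.28 and 4.80 ± 0.14 (SD, n = 3 each) differ 6.20-fold (log2 change 2.63, SE 0.19, limma adjusted p = 2.2e-05). Normoxic CP was a low signal, below the lower quartile of its array on 2 arrays. No background level comes with these signals, and the fold may be understated. In RNA pooled over many cells, a rise in each cell and a larger share of cells with the transcript cannot be told apart.

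With HIF1A siRNA, CP read 5.96, 5.97 and 5.52, below all 3 hypoxic control arrays and above all 3 normoxic ones. It averaged 5.81 ± 0.26, which is 3.07-fold below hypoxic control cells (log2 change -1.62, SE 0.19, limma adjusted p = 9.1e-04) and 2.02-fold above normoxic cells (1.01, SE 0.19, adjusted p = 0.0052). On the log2 scale 38.6% of the hypoxic rise was left. With HIF2A siRNA, CP read 7.02, 6.54 and 7.15, which overlaps the hypoxic control arrays in that 7.15 exceeds their lowest value. The average of 6.90 ± 0.32 left 80.0% of the rise, and the change of -0.53 (95% interval -0.95 to -0.10, limma unadjusted p = 0.0200, adjusted p = 0.9999) was not called. Against normoxic cells CP with HIF2A siRNA was 4.30-fold higher (2.10, SE 0.19, adjusted p = 1.0e-04).

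The siRNAs differed in CP by -1.09 (HIF1A minus HIF2A siRNA, SE 0.19, limma adjusted p = 0.0089), and their arrays did not overlap. This difference was not called without HIF2A siRNA replicate 1 (-1.03, adjusted p = 0.0505) or when only these 2 groups were fitted (adjusted p = 0.0738). CP therefore stood highest in hypoxic control cells, then with HIF2A siRNA, then with HIF1A siRNA and lowest in normoxic cells, and the first 2 of these groups were the neighbours not called apart. In the same HIF1A siRNA over HIF2A siRNA comparison 3 of 8 members were called, all lower, against 9.43% of all genes called (0.899% higher and 8.53% lower) and 30.5% not overlapping. Of the 22 markers of other cell types 1 was called there, the erythroid HBB, which was higher (0.66, SE 0.15, limma adjusted p = 0.0267). The glioma or astrocyte marker S100B was also called higher (0.65, SE 0.13, limma adjusted p = 0.0137). HBB kept its call in 9 of 13 alternatives and S100B in 12 of 14.

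**Figure D2:**
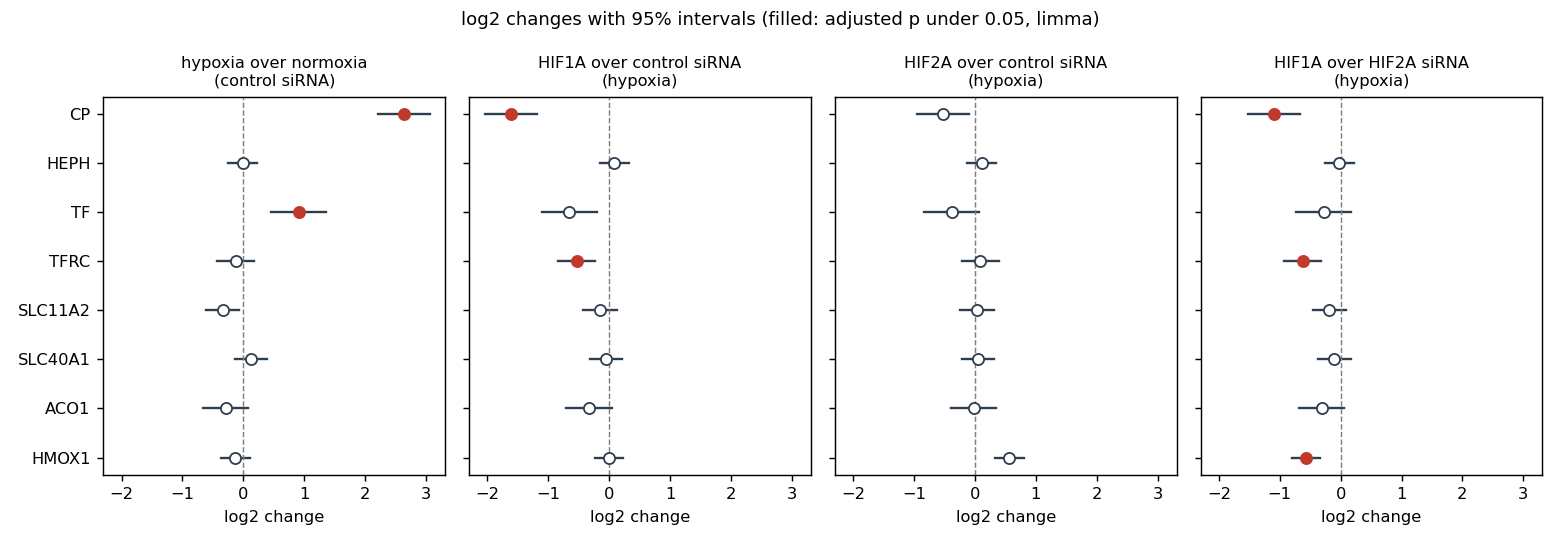
log2 change (horizontal axis) of each member in 4 comparisons, with 95% intervals from limma (n = 3 arrays per group); filled points have an adjusted p under 0.05. CP is filled at 2.63, -1.62 and -1.09, and no member is filled for HIF2A siRNA over control siRNA.

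HEPH, the membrane-bound relative of ceruloplasmin known from the gut, stayed near the bottom of the arrays. It ran from 3.64 to 3.94 with HIF1A siRNA, 3.71 to 3.91 with HIF2A siRNA and 3.60 to 3.76 in hypoxic control cells, against 3.64 to 3.70 in normoxic cells. All 12 values lay below the lower quartile of their arrays. The groups overlapped in every pair except HIF2A siRNA and normoxic cells, where the change was 0.10 (limma adjusted p = 0.669). The hypoxic change was -0.01 (95% interval -0.25 to 0.23, limma adjusted p = 0.970).

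TF, the plasma iron carrier, was likewise dim, at the 0.554th to 12.4th percentile of its arrays. Its probe set read 3.33, 2.63 and 2.95 in hypoxic control cells, against 2.03, 1.74 and 2.43 in normoxic cells, with no overlap. The change of 0.91 (SE 0.21, limma adjusted p = 0.0158) was a called rise of 1.87-fold at a level where probe sets hold little signal. It was not called without hypoxic control replicate 1 (adjusted p = 0.0511), normoxic replicate 1 (0.0626) or normoxic replicate 2 (0.0613). With HIF1A siRNA TF read 2.18, 2.58 and 2.17, below all hypoxic control arrays, a change of -0.66 (SE 0.21, limma adjusted p = 0.0618) that was not called. That call appeared without HIF1A siRNA replicate 2 (adjusted p = 0.0321) or hypoxic control replicate 2 (0.0391). With HIF2A siRNA TF read 2.53, 2.55 and 2.69, overlapping the hypoxic control arrays (change -0.38, 95% interval -0.83 to 0.07).

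A second probe set is paired with both TF and SRPRB, a subunit of the signal recognition particle receptor, and cannot be assigned to either gene. It read 10.5, 10.5 and 10.2 with HIF1A siRNA, 11.0, 10.9 and 10.9 with HIF2A siRNA and 10.9, 11.0 and 11.2 in hypoxic control cells, against 9.64, 9.54 and 9.52 in normoxic cells. All hypoxic arrays, whatever their siRNA, were above all normoxic ones. Hypoxic control cells exceeded normoxic cells by 1.50 (SE 0.11, limma adjusted p over all probe sets = 2.1e-05). HIF1A siRNA changed it by -0.65 (SE 0.11, adjusted p = 0.0068), a call lost in the fit of 2 groups (adjusted p = 0.108), and HIF2A siRNA by -0.12, which was not called. The probe set paired with SRPRB alone went the other way in hypoxia (-0.67, SE 0.18, adjusted p = 0.0421), and its HIF1A siRNA arrays overlapped the hypoxic control arrays.

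**Figure D3:**
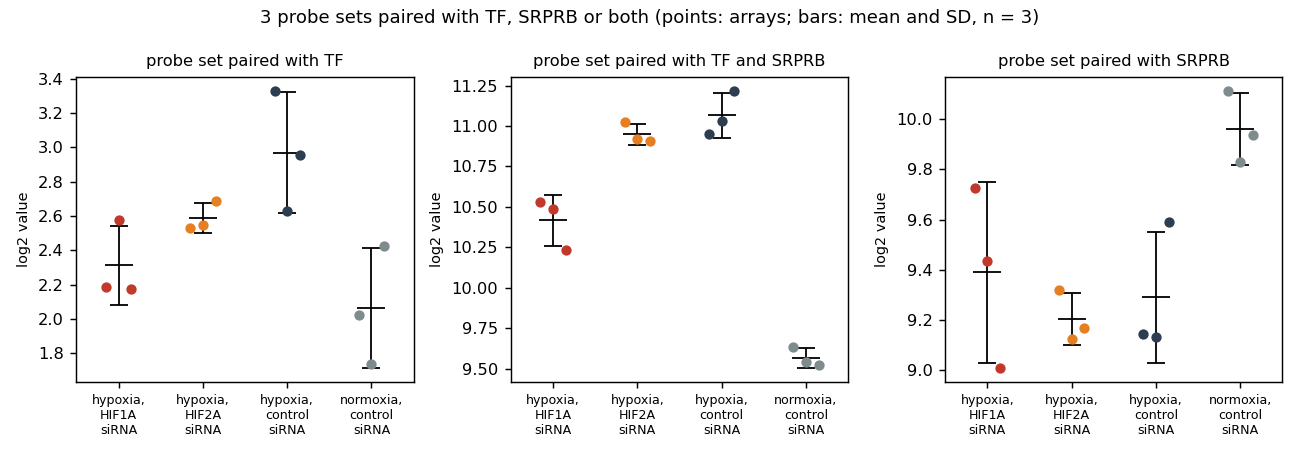
log2 values (vertical axis, own range in each panel) of the probe sets paired with TF alone, with TF and SRPRB, and with SRPRB alone on the 12 arrays; points are arrays, bars the mean and SD (n = 3). Hypoxic control minus normoxic means are 0.91, 1.50 and -0.67 from left to right.

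TFRC, the transferrin receptor, was among the brightest genes, at the 95.03rd to 97.12th percentile of its arrays. It read 10.84, 10.77 and 10.37 with HIF1A siRNA, 11.29, 11.20 and 11.37 with HIF2A siRNA and 11.27, 11.00 and 11.32 in hypoxic control cells, against 11.42, 11.26 and 11.29 in normoxic cells. The HIF1A siRNA arrays were below all 9 others, and the other 3 groups overlapped. Hypoxia alone gave -0.13 (95% interval -0.43 to 0.17, limma adjusted p = 0.662), whose sign turned with cyclic loess (0.02). HIF1A siRNA lowered TFRC 1.45-fold relative to hypoxic control cells (-0.53, SE 0.14, limma adjusted p = 0.0326) and 1.58-fold relative to normoxic cells (-0.66, SE 0.14, adjusted p = 0.0065). Relative to HIF2A siRNA it was 1.54-fold lower (-0.62, SE 0.14, adjusted p = 0.0213), while HIF2A siRNA itself gave 0.09 (95% interval -0.21 to 0.39).

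The HIF1A siRNA call against hypoxic control cells was lost without hypoxic control replicate 1 (adjusted p = 0.131), hypoxic control replicate 3 (0.0968) or HIF1A siRNA replicate 3 (0.0974), and in a fit of the 2 groups alone (0.165). Against HIF2A siRNA the TFRC call was lost without HIF1A siRNA replicate 3 (adjusted p = 0.0604), HIF2A siRNA replicate 1 (0.0828) or HIF2A siRNA replicate 3 (0.0953), and in a fit of those 2 groups (0.120). Against normoxic cells it was called under all 14 alternatives (log2 changes -0.75 to -0.38).

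SLC11A2, the endosomal iron transporter, read 8.43, 8.67 and 8.18 with HIF1A siRNA, 8.68, 8.54 and 8.60 with HIF2A siRNA and 8.71, 8.46 and 8.56 in hypoxic control cells, against 8.99, 8.90 and 8.86 in normoxic cells. As deposited, all 9 hypoxic arrays lay below the 3 normoxic ones, and the 3 hypoxic groups overlapped. The change in hypoxic control cells was -0.34 (95% interval -0.62 to -0.07), not called over all genes (limma adjusted p = 0.103), though it was with array weights (0.0106). Over the 14 alternatives this change ran from -0.41 to -0.17 (highest limma adjusted p 0.310). With HIF1A siRNA SLC11A2 was lower than in normoxic cells by limma (-0.49, SE 0.12, adjusted p = 0.0135). That call was lost without normoxic replicate 1 (adjusted p = 0.0562), and quantile normalization shrank the change to -0.05 (adjusted p = 0.651).

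SLC40A1, the iron exporter ferroportin, lay below the lower quartile of all 12 arrays. It ran from 4.30 to 4.59 with HIF1A siRNA, 4.46 to 4.66 with HIF2A siRNA and 4.37 to 4.71 in hypoxic control cells, against 4.32 to 4.43 in normoxic cells. The hypoxic change was 0.12 (95% interval -0.14 to 0.39, limma adjusted p = 0.613), and no comparison called it. With CP, which acts on the iron that ferroportin releases, the hypoxic changes were 2.63 for the ferroxidase and 0.12 for the exporter.

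ACO1, which encodes the bifunctional cytosolic aconitase and iron regulatory protein 1, read 9.13, 9.50 and 8.72 with HIF1A siRNA, 9.50, 9.32 and 9.45 with HIF2A siRNA and 9.64, 9.38 and 9.32 in hypoxic control cells, against 9.80, 9.72 and 9.69 in normoxic cells. As for SLC11A2, all 9 hypoxic arrays lay below the 3 normoxic arrays in the deposited values. The change in hypoxic control cells was -0.29 (95% interval -0.66 to 0.08, limma adjusted p = 0.339), and was called only with array weights (-0.35, adjusted p = 0.0359). Over the 14 alternatives this change ran from -0.38 to -0.12 (highest limma adjusted p 0.599). HIF1A siRNA gave -0.33 relative to hypoxic control cells (SE 0.17, adjusted p = 0.207), called only without HIF1A siRNA replicate 2 (-0.52, adjusted p = 0.0296). Relative to normoxic cells it gave a called -0.62 (SE 0.17, adjusted p = 0.0177). That call was lost without HIF1A siRNA replicate 3 (-0.42, adjusted p = 0.0544) or normoxic replicate 1 (adjusted p = 0.0639), and with quantile normalization (-0.19, adjusted p = 0.196). The 3 HIF1A siRNA arrays of ACO1 spread by 0.39 (SD), wider than any other group of a member, with replicate 3 the lowest.

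HMOX1, which breaks haem down, was highest with HIF2A siRNA. It read 7.33, 7.33 and 7.13 with HIF1A siRNA, 8.03, 7.68 and 7.79 with HIF2A siRNA and 7.29, 7.21 and 7.29 in hypoxic control cells, against 7.38, 7.35 and 7.47 in normoxic cells. All HIF2A siRNA arrays were above the 9 others. Hypoxia itself gave -0.13 (SE 0.11, limma adjusted p = 0.522) and HIF1A siRNA 0.00 (95% interval -0.24 to 0.24).

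HIF2A siRNA gave an HMOX1 change of 0.57 relative to hypoxic control cells (SE 0.11, limma unadjusted p = 2.6e-04), which was not called over all genes (adjusted p = 0.514) nor under any of 14 alternatives (lowest adjusted p 0.0523). Relative to HIF2A siRNA, HIF1A siRNA was 1.48-fold lower (-0.57, SE 0.11, limma adjusted p = 0.0116). That call was lost without HIF2A siRNA replicate 1 (-0.47, adjusted p = 0.0563) or in a fit of those 2 groups (0.119). Relative to normoxic cells HMOX1 was 1.35-fold higher with HIF2A siRNA (0.43, SE 0.11, limma adjusted p = 0.0288). This call was lost without HIF2A siRNA replicate 1 (0.34, adjusted p = 0.104) or 3 (0.0614) and without normoxic replicate 1 (0.105), 2 (0.0986) or 3 (0.0712).

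Set against normoxic cells, hypoxic HIF1A siRNA cells had 4 of 8 members called, CP higher and TFRC, ACO1 and SLC11A2 lower. That comparison called 35% of all genes (4.67% higher and 30.4% lower), and 5 members did not overlap, against 54.5% of all genes. Hypoxic HIF2A siRNA cells had 2 members called against normoxic cells, CP and HMOX1, both higher. There 9.64% of all genes were called (2.85% higher and 6.79% lower), and 7 of 8 members did not overlap, against 36.7% of all genes. Comparisons with normoxic cells share the same 3 normoxic arrays. Of the markers, CD68 (0.41), HBB (0.55) and GFAP (0.34) were called higher and CD44 (-0.42) lower with HIF1A siRNA than in normoxic cells by limma (adjusted p 0.0191 to 0.0300). CD68 lost the call without HIF1A siRNA replicate 1 (0.0531) or normoxic replicate 1 (0.0669) or 2 (0.0565), and HBB without HIF1A siRNA replicate 3 (0.0545) or normoxic replicate 1 (0.0714) or 2 (0.0678). GFAP (0.0529 to 0.120) and CD44 (0.0578 to 0.0890) lost theirs without HIF1A siRNA replicate 1 or 3 or any normoxic replicate, and CD44 also with each of 3 rescalings (adjusted p 0.105 to 0.976).

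The genes whose pattern over the 12 arrays was most like that of CP were IGFBP5, which binds insulin-like growth factors (Pearson r = 0.987), PTGS2, the inducible cyclooxygenase (0.985), ANGPTL4, a lipoprotein lipase inhibitor (0.984), DEPP1 (0.981) and STC1, a secreted stanniocalcin (0.979). They were picked from 4315 genes with an SD of at least 0.3, and the 12 arrays form 4 groups, so r describes mainly the shared order of group means. In each of the 5, as in CP, the mean was highest in hypoxic control cells, then with HIF2A siRNA, then with HIF1A siRNA, and lowest in normoxic cells. ANGPTL4, for example, averaged 7.17 ± 0.27 with HIF1A siRNA, 8.77 ± 0.25 with HIF2A siRNA and 9.26 ± 0.12 in hypoxic control cells, against 5.94 ± 0.13 in normoxic cells (SD, n = 3).

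**Figure D4:**
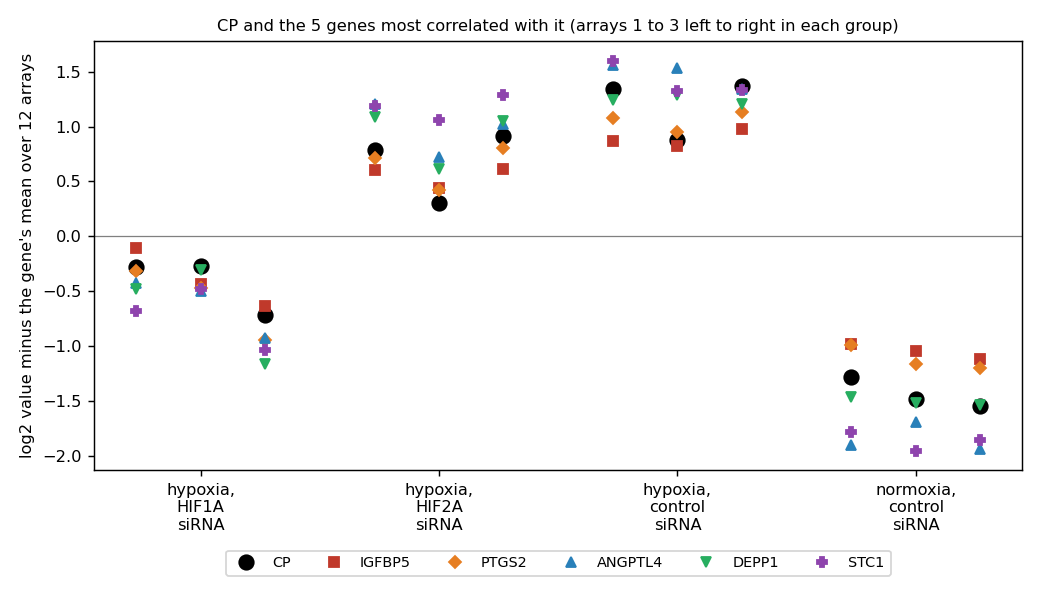
log2 value minus the gene's mean over the 12 arrays (vertical axis) for CP and the 5 genes most correlated with it, array by array in the 4 groups; each symbol is 1 gene on 1 array. The 6 genes share the order of groups, with r to CP from 0.979 to 0.987.

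For TFRC the most similar genes were SGCB (r = 0.988), PGM2 (0.986) and WDR47 (0.986). For ACO1 they were POMP, a proteasome maturation factor (0.99), SUZ12, a Polycomb repressor subunit (0.99), and YTHDF1 (0.986), and for SLC11A2 NUDCD1 (0.985), TAF5 (0.983) and PRORP (0.982). These correlations used the deposited values without rescaling. Upper quartiles were 8.57, 8.47 and 8.52 on the normoxic arrays and 7.88 on HIF1A siRNA replicate 3. The part of such array differences in r was not tested. HMOX1 had ERAP1 (0.908), BBOF1 (0.845) and PLAC8 (0.836), and TF had CPVL (0.914), INHA (0.888) and DYNC1H1 (0.874). The dim members HEPH, with OR6C76 first (0.885), and SLC40A1, with GJA1 first (0.776), varied over the 12 arrays with SDs of only 0.11 and 0.13.

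Other genes of iron, haem and copper handling were read from 10 lists. Over all genes hypoxia called 3.37% higher and 8.95% lower, and HIF1A siRNA 0.857% higher and 10.2% lower. The counts of calls in the lists are to be read beside these shares, and no list was tested as a set. For iron uptake and reduction, 13 of 16 listed genes were measured, and hypoxia raised 1 and lowered 2 of them. TFR2, the second transferrin receptor, rose by 0.38 (SE 0.09, limma adjusted p = 0.0251), a call lost without hypoxic control replicate 2 (adjusted p = 0.102) or 3 (0.0691) or normoxic replicate 1 (0.119) or 3 (0.0727). The metal importers SLC39A14 (-0.60, SE 0.12, adjusted p = 0.0106) and SLC39A8 (-0.59, SE 0.14, adjusted p = 0.0233) fell. SLC39A14 lost its call without hypoxic control replicate 2 (adjusted p = 0.0521), and SLC39A8 without hypoxic control replicate 1 (0.0617) or 2 (0.0857) or normoxic replicate 1 (0.0921), 2 (0.0505) or 3 (0.0816). HIF1A siRNA lowered 2 of the 13, with EXOC6, an exocyst subunit linked to transferrin cycling in mice, at -1.63 (SE 0.28, adjusted p = 0.0064). EXOC6 was called in 13 of 14 alternatives and missed it in the fit of the 2 groups (adjusted p = 0.0739). The other, SNX3, of receptor recycling (-0.42, adjusted p = 0.0343), was called in 4 of 14 alternatives. It lost the call with each of 3 rescalings (adjusted p 0.0645 to 0.168) and without HIF1A siRNA replicate 1 (0.0612) or 3 (0.103) or hypoxic control replicate 1 (0.151) or 3 (0.0746).

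None of 7 measured genes of iron storage and iron chaperones passed limma's test in hypoxia or with HIF1A siRNA, among them NCOA4, the ferritinophagy receptor (0.09 and -0.47). After each of 3 rescalings 1 of the 7 was called higher with HIF1A siRNA. Higher calls over all genes also increased there, from 122 as deposited to 726 (quantile normalization), 545 (cyclic loess) and 509 (median centring). The ferritin heavy chain FTH1 was not analysed here.

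For haem uptake, export and breakdown, hypoxia raised 1 and lowered 3 of 12 measured genes, against 3.37% higher and 8.95% lower over all genes. LRP1, a receptor for haem bound to hemopexin among many ligands, rose by 1.43 (SE 0.11, limma adjusted p = 2.3e-05) and was called in all 14 alternatives. HIF1A siRNA lowered it relative to hypoxic control cells (-0.57, SE 0.11, adjusted p = 0.0095), which was not called with quantile normalization (-0.28, adjusted p = 0.0914), cyclic loess (-0.31, adjusted p = 0.0794) or the 2 groups alone (0.110). The other gene lowered by HIF1A siRNA was the haem-binding HEBP2 (-0.44, adjusted p = 0.0367), called in 5 of 14 alternatives. It lost the call without hypoxic control replicate 1 (0.142), 2 (0.0514) or 3 (0.0917) or HIF1A siRNA replicate 3 (0.111), and fell short with quantile normalization (-0.17, adjusted p = 0.185). The haem and porphyrin exporter ABCG2 fell in hypoxia (-0.84, SE 0.16, adjusted p = 0.0069), also in all 14 alternatives. The haem exporter FLVCR1 fell (-0.85, SE 0.21, adjusted p = 0.0206), a call lost without hypoxic control replicate 2 (adjusted p = 0.0906) or normoxic replicate 1 (0.0880) or 3 (0.0690). The third fall, named after its value was seen, was BLVRA, a biliverdin reductase that acts after haem oxygenase (-0.65, SE 0.13, adjusted p = 0.0082), called in all 14 alternatives. With HIF1A siRNA BLVRA was not called as deposited. It was then called higher in 2 of 14 alternatives, quantile normalization (0.43, limma adjusted p = 0.0409) and cyclic loess (0.41, adjusted p = 0.0444). HMOX1 itself, above, was not called in hypoxia.

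Of 9 measured haem synthesis genes, UROD fell in hypoxia (-0.66, limma adjusted p = 0.0172), a call lost without hypoxic control replicate 1 (0.0505) or 3 (0.0575) or normoxic replicate 1 (0.0525) or 3 (0.0715). Of 11 mitochondrial genes, the iron importer SLC25A37 rose in hypoxia (0.53, adjusted p = 0.0191) and NFU1, an iron-sulfur carrier, fell (-0.64, adjusted p = 0.0257). SLC25A37 lost the call without any 1 of the 6 arrays (0.0514 to 0.0684), and NFU1 without hypoxic control replicate 2 (0.110) or 3 (0.0690) or normoxic replicate 1 (0.115), 2 (0.0509) or 3 (0.0654). With HIF1A siRNA SLC25A37 was called lower (-0.44, adjusted p = 0.0431), but not after any of 3 rescalings (-0.32 to -0.16) nor without any of 5 arrays, HIF1A siRNA replicate 1 being the exception. The mitochondrial list had a median of -0.30 in hypoxia, against -0.03 over all genes, and -0.16 with quantile normalization. Of 7 genes of cytosolic assembly, MMS19 rose in hypoxia (0.62, SE 0.12, adjusted p = 0.0076, called in all 14 alternatives) and was lower with HIF1A siRNA than in hypoxic control cells (-0.57, SE 0.12, adjusted p = 0.0168). The second call was lost without hypoxic control replicate 1 (adjusted p = 0.0821) or in the fit of 2 groups (0.128). Among 14 measured regulators of systemic iron and of the iron regulatory proteins, the BMP receptor ACVR1 fell in hypoxia (-0.46, adjusted p = 0.0290) and none was called with HIF1A siRNA. ACVR1 lost the call without hypoxic control replicate 2 (0.119) or 3 (0.0830), normoxic replicate 1 (0.127) or 3 (0.0925), or with cyclic loess (0.0563).

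Copper loading precedes ferroxidase activity of ceruloplasmin, so 13 measured genes of copper handling were also read. Hypoxia raised 1, the metallothionein MT1X (0.63, SE 0.18, limma adjusted p = 0.0458), and 3 were called higher after each of 3 rescalings. Higher calls in hypoxia also increased over all genes, from 480 as deposited to 946 (quantile normalization), 1059 (cyclic loess) and 767 (median centring). MT1X lost the call without hypoxic control replicate 1 (0.130), 2 (0.114) or 3 (0.0686) or normoxic replicate 1 (0.141) or 3 (0.178). HIF1A siRNA lowered 1, ATP7A, a copper pump of the secretory pathway (-1.89, SE 0.37, adjusted p = 0.0110). In hypoxia ATP7A was not called as deposited. It rose there by 0.99 to 1.39 over the 14 alternatives and was called in 7 of them (limma adjusted p 0.0060 to 0.173). ATP7A lost its HIF1A siRNA call without hypoxic control replicate 1 (-1.65, adjusted p = 0.0585) or in the fit of 2 groups (0.0937). ATP7B, the pump that loads ceruloplasmin in liver, gave -0.02 in hypoxia (adjusted p = 0.917) and -0.01 with HIF1A siRNA (adjusted p = 0.932).

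Among 10 measured genes of the NRF2 and BACH1 list, factors and targets that share control of HMOX1, hypoxia raised 2 and lowered 2. Over all genes it called 3.37% higher and 8.95% lower. The repressor BACH1 rose (0.61, SE 0.14, limma adjusted p = 0.0149), while the glutathione synthesis genes GCLM (-1.06, SE 0.24, adjusted p = 0.0149) and GCLC (-0.71, SE 0.17, adjusted p = 0.0214) fell. The second rise, named after its value was seen, was ABCC1, a glutathione conjugate exporter (0.57, adjusted p = 0.0130), not called without normoxic replicate 3 (0.0554). BACH1 lost its call without hypoxic control replicate 2 (0.0570) or normoxic replicate 1 (0.0509), 2 (0.0537) or 3 (0.0528). GCLM and GCLC lost theirs without hypoxic control replicate 2 (0.0634 and 0.0932) or normoxic replicate 1 (0.0692 and 0.0985) or 3 (0.0554 and 0.0520). ME1 was not called in hypoxia as deposited. It rose there by 0.69 to 0.94 over the 14 alternatives and was called in 5 of them (limma adjusted p 0.0032 to 0.212). HIF1A siRNA lowered 3, against 10.2% of all genes, namely ME1 (-1.39, adjusted p = 0.0086), BACH1 (-0.83, adjusted p = 0.0051) and ABCC1 (-0.60, adjusted p = 0.0148). None of the 3 was called in a fit of the 2 groups, and ABCC1 also not without hypoxic control replicate 1 (0.0724) or HIF1A siRNA replicate 3 (0.0540). The list's median with HIF1A siRNA was -0.45, against -0.05 over all genes. With quantile normalization it was -0.24, against 0.07 over all genes, and 2 other members were called higher. Higher calls over all genes also increased with that normalization, from 122 as deposited to 726. With HIF2A siRNA 0 of the 10 were called, against 0.00703% of all genes. Of the 3 other measured mRNAs known for an iron-responsive element, EPAS1 rose in hypoxia (1.19, SE 0.15, adjusted p = 7.1e-04) and CDC14A fell (-0.51, adjusted p = 0.0213), a call lost without hypoxic control replicate 2 (0.0947) or 3 (0.0581) or normoxic replicate 1 (0.0885) or 3 (0.0764).

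**Figure D5:**
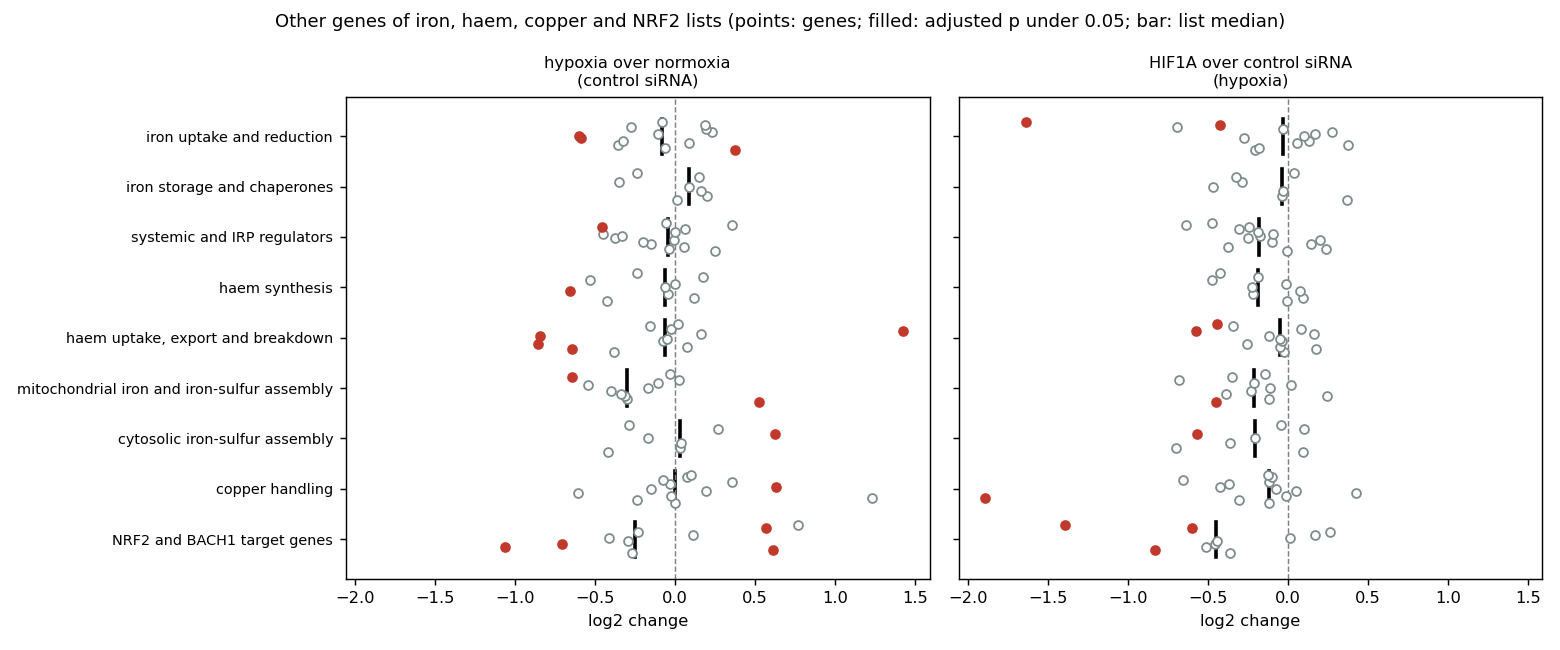
log2 change (horizontal axis) of each measured gene in 9 lists (rows) for hypoxia over normoxia and for HIF1A siRNA over control siRNA in hypoxia; filled points have an adjusted p under 0.05 and black bars are list medians. LRP1 at 1.43 is the filled point farthest right, and ATP7A at -1.89 the one farthest left.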

How the data were processed

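The deposited values are log2 signals, 1 per probe set and array; base 2 was inferred from their range. Partek and hg18 are named in the submitters' processing notes; for background correction, summarization and normalization the sources used here give no detail. Of 22011 probe sets, the platform annotation pairs 14432 with 1 symbol, 2408 with several and 5171 with none; 14404 gene IDs were in RefSeq (GRCh38.p14) and 0 symbols were updated. Of several probe sets for 1 gene (197 genes) the brightest was used. No filter on low values was applied, so all 8 members found were tested. Group means were fitted over 12 arrays with limma 3.58.1 in R 4.3.3 (lmFit, eBayes). Benjamini-Hochberg adjustment ran over 14232 genes within each of 6 comparisons, and adjusted p under 0.05 made a call. The procedure was tested on simulated data. Intervals are 95%. The number of arrays limits the precision.

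Members and lists were chosen with earlier results of these data known. All members are named, with HIF1A and EPAS1, up to 3 called genes per list and comparison with the largest change, and the 5 (CP) or 3 (others) most correlated genes. Outside that rule the list genes NCOA4 and ATP7B are named though not called. So are BLVRA and ABCC1 for hypoxia and BLVRA for HIF1A siRNA, after their values were seen, and the uncalled hypoxic changes of ATP7A and ME1. Alternatives were quantile normalization, cyclic loess, median centring, leaving out dim probe sets, a replicate block, array weights, fitting 2 groups, averaging probe sets and leaving out each array, or 14 for each comparison. Promoter sequences are RefSeq's. Per-sample columns left unused numbered 0.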

Additional observations from a re-analysis of the deposited data

Results flagged for a closer look

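HIF1A siRNA and HIF2A siRNA, each against the same hypoxic control arrays, had different effects on 3 members by limma's test of the difference. For CP the HIF1A effect minus the HIF2A effect was -1.09 on the log2 scale (adjusted p = 0.0089), for TFRC -0.62 (0.0213) and for HMOX1 -0.57 (0.0116). Every HIF1A siRNA array was below every HIF2A siRNA array for each of the 3. These differences are those between the siRNA groups in the report, and for each of them leaving out HIF2A siRNA replicate 1 ended the call.

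A probe set outside the members, paired with both TF and SRPRB, was higher in hypoxic control than in normoxic cells by 1.50 (SE 0.11, adjusted p = 2.1e-05) and was called in all 14 alternatives. It is not assigned to TF.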

How the results depend on the processing

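The 2 hypoxic calls, CP and TF, became 1 when dim probe sets were left out, since TF was then not tested, and 4 with array weights, which added SLC11A2 and ACO1. For HIF1A siRNA against hypoxic control cells the 2 calls became 1 in a fit of 2 groups. The 4 calls of HIF1A siRNA against normoxic cells became 2 with quantile normalization, cyclic loess or a fit of 2 groups, and the 3 calls of HIF1A siRNA against HIF2A siRNA became 0 in a fit of 2 groups. Leaving out 1 array gave 1 to 2 member calls in hypoxia, 1 to 4 for HIF1A siRNA, 0 to 0 for HIF2A siRNA, 2 to 4 and 1 to 2 for HIF1A and HIF2A siRNA against normoxic cells, and 0 to 4 between the siRNAs. CP was called in all 14 alternatives for hypoxia (log2 change 2.54 to 2.79, highest adjusted p 5.3e-04) and for HIF1A siRNA (-1.78 to -1.47, highest adjusted p 0.0197). No called member changed sign under the alternatives in which it was tested.

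Over all genes, hypoxia called 1754 (3739 with array weights, 806 to 1410 without 1 array). HIF1A siRNA called 1573 (791 with array weights, 137 with 2 groups, 390 to 2648 without 1 array). HIF2A siRNA called 1 (4 with quantile normalization or cyclic loess, 3 with centring). Against normoxic cells HIF1A siRNA called 4986 (3250 with 2 groups, 2361 to 5042 without 1 array) and HIF2A siRNA 1372 (3214 with array weights, 2131 with 2 groups, 588 to 932 without 1 array). Between the siRNAs 1342 were called (127 with 2 groups, 268 to 2557 without 1 array). Of the hypoxic calls 27.4% were higher as deposited, 44.1% with quantile normalization and 45.1% with cyclic loess. For HIF1A siRNA the same shares were 7.76%, 39.2% and 31.5%, and the median change of all genes moved from -0.05 as deposited to 0.07 with quantile normalization, so the size of its excess of lower calls depends on the scaling. The shares also moved for HIF1A siRNA against normoxic cells (13.3% as deposited, 51.8% with quantile normalization), HIF2A siRNA against normoxic cells (29.5% and 46.0%) and between the siRNAs (9.54% and 44.9%).

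The labels number replicates 1 to 3 in every group. Deviations of same-numbered arrays correlated at -0.29 to 0.42, over 0.1 in 5 of 18 pairs. Those of differently numbered arrays correlated at -0.49 to 0.49, over 0.1 in 11 of 36 pairs. Of 12 arrays, 4 correlated best with their own number, so the numbers were not taken to pair samples. With a replicate block the member counts were 2, 2, 0, 4, 2 and 3 for hypoxia, HIF1A siRNA, HIF2A siRNA, HIF1A and HIF2A siRNA against normoxic cells, and between the siRNAs, the same as without it, while the list genes SNX3, HEBP2 and MT1X were then not called (adjusted p 0.0560, 0.0538 and 0.0771). Signals low on the array limit TF, HEPH and SLC40A1.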
